A study of Mus musculus with 9 samples.

Results

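Nes, Vim, Prom1, Nr2e1, Pax6, Lhx2, Emx2, Fabp7 and Gas1 are genes by which neural stem cells (NSCs) and radial glia are commonly recognised, and they were followed through the first hours of NSC differentiation. They were chosen by name and found in the count table by their Ensembl identifiers. All 9 were present among its 48526 genes, and all 9 were among the 18858 genes that passed the expression filter of edgeR. NSCs of the subependymal zone (SEZ), the germinal layer that lines the lateral ventricles, were taken from adult C57BL/6 mice (wild-type C57BL/6J, 2 to 4 months old, in the methods of the study) and expanded as neurospheres. Undifferentiated NSCs (0 h) were compared with cells collected 1 h and 6 h after differentiation had been induced on an adhesive substrate, Matrigel in the methods, with EGF withdrawn and FGF kept. The methods state that cells fixed early after induction were first seeded in medium with EGF and FGF. They do not say whether the sequenced cells were handled in this way. Each time point had 3 replicates, numbered 1 to 3 in the labels (letters B, C and D in their titles), which gives 9 bulk RNA-seq libraries with total counts from 65871454 to 105592597. All 9 libraries carry the same strain and treatment entries, and the labels name no transgene or mutation. They leave unsaid what binds libraries of 1 number together and how many animals went into a culture. Because nothing says that the replicates are separate cultures, p-values speak only for these libraries. In fits by time point alone they rest on the spread between libraries of a time point. In fits that compare within replicates, they rest on the spread left after differences between replicate numbers are removed.

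NSCs of the adult SEZ descend from radial glia and keep much of their gene programme. Nestin and vimentin co-assemble into the intermediate filaments of these cells, FABP7 carries fatty acids in their cytoplasm, and prominin 1 (CD133) and GAS1 sit on their surface. NR2E1 (TLX), PAX6, LHX2 and EMX2 are transcription factors that maintain the stem cell state or pattern the forebrain. In vivo, some of these genes are turned down at different steps as NSCs give rise to transit amplifying progenitors and neuroblasts. Pax6 is also a gene of dopaminergic olfactory neurons, and several of the genes persist in astrocytes.

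The start regions of 3 genes that fell at 6 h when libraries were compared within replicates are shown, so that their letters can be set side by side. Vim fell too and is not shown, because its window begins within an annotated exon. Each is the stretch before the annotated first exon within the RefSeq window of 250 bases before to 50 bases after the start (GRCm38.p6), 5′ to 3′ on the strand of the gene, with the GC box (GGGCGG, or CCGCCC where it lies on the other strand) in capitals. The stretch of Nes is chr3:87970843-87971077 on the plus strand, that of Lhx2 is chr2:38339031-38339280 on the plus strand, and that of Gas1 is chr13:60177536-60177785 on the minus strand.
Nes: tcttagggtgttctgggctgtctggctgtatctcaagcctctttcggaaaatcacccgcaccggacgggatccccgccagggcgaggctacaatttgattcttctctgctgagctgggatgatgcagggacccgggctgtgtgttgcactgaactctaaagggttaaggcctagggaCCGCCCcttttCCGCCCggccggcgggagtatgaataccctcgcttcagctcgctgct
Lhx2: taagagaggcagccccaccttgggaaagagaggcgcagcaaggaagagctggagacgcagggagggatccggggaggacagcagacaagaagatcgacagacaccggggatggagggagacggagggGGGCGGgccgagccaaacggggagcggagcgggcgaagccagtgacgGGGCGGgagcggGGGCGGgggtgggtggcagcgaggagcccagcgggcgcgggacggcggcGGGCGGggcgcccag
Gas1: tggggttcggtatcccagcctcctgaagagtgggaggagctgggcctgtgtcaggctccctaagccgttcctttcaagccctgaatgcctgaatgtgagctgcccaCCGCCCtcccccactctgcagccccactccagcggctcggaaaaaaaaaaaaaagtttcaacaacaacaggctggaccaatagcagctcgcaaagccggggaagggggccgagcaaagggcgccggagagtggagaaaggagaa
The 235 bases of Nes held 2 GC boxes and had a GC content of 58.7%, the 250 bases of Lhx2 held 4 with 72.8%, and the 250 bases of Gas1 held 1 with 58.8%. Over the whole windows and both strands, the GC box GGGCGG was present in 5 of the 9 genes (Nes, Prom1, Lhx2, Emx2 and Gas1) and in 35.7% of 32851 mouse windows. Vim, which also fell, had no GC box. A gene was counted if any of its windows had the motif, and the 9 genes had 12 windows. The shares are per window, so here and below they are not on the same scale as the counts of genes. The CCAAT box was present in 6 genes (Vim, Prom1, Pax6, Emx2, Fabp7 and Gas1) and in 37.4% of windows. The other motifs searched were rarer in all windows. The TATA box TATAAA (13.6% of windows) was found in Vim, the AP-1 motif TGACTCA (5.2%) in Prom1, the CRE TGACGTCA (1.79%) in Nr2e1 and Pax6, and the EGR motif GCGTGGGCG or GCGGGGGCG (3.47%) in Lhx2, where it can overlap a GC box. A match says only that the letters are there.

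Compared per length, the 9 genes covered a wide range in undifferentiated NSCs. RPKM here is CPM, counts scaled to library sizes that were corrected with TMM factors, divided by the kilobases of all annotated exons of a gene. At 0 h Fabp7 had the highest level with 1684 ± 241 RPKM (SD, n = 3), followed by Vim with 552 ± 57.8 and Nes with 310 ± 61.5, and no 0 h library of one overlapped those of the next. Gas1 came next with 21.6 ± 7.05 RPKM. Emx2 (9.46 ± 3.90), Lhx2 (7.62 ± 2.92) and Nr2e1 (6.22 ± 0.837) overlapped, and their order is not resolved beyond the spread between libraries. Pax6 (3.04 ± 0.316) and Prom1 (1.12 ± 0.649) were lowest, and neither overlapped its neighbours. This order depends on the annotated exon lengths, which need not be those of the transcripts expressed. Pax6 has 11.7 kb of exons, against 4.39 kb for Lhx2, 3.71 kb for Nr2e1 and 3.00 kb for Emx2. In mean CPM at 0 h Pax6 (35.6) was above Lhx2 (33.5), Emx2 (28.4) and Nr2e1 (23.1), and Vim (2616) was above Fabp7 (2105). All 9 genes were counted in all libraries, from a minimum of 194 reads for Prom1 to a maximum of 258530 for Vim.

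The cells were checked against other markers. Levels were uneven within the NSC list and within those of other lineages. Of 20 further NSC and radial glia genes all had a mean of at least 1 CPM. Ptprz1 (3532 CPM) was the highest of them, and Hopx (1.48) and Fut4 (1.61) were the lowest. Gfap, whose protein the study used to identify NSCs of the SEZ, had a mean of 1.09 CPM. Olig1 (1289.9 CPM over all libraries) led the oligodendrocyte lineage list, Map2 (1118 CPM) the neuroblast and neuron list and Aldoc (626 CPM) the astrocyte list. In the same lists Sox10 (0.128 CPM), Mbp (0.652), Mog (0.279), Dcx (0.913), Stmn2 (0.275), Snap25 (2.09), Gjb6 (0.016), Aqp4 (1.61) and S100b (1.92) were low. Microglia markers were near 0, with a sum of 0.122 to 0.570 CPM over 7 genes and C1qa at 0 in every library. In bulk samples, fewer cells that express a gene and less RNA of it per cell cannot be told apart.

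Libraries of 1 replicate number resembled each other. The main fit in edgeR used time point alone, and a second fit had the replicate number as a block, which compares 6 h and 0 h within replicates. Both are given, because the block decided the calls for these genes. Without the block, 0 of the 9 genes passed an adjusted p of 0.05 in any of the 3 comparisons after Benjamini-Hochberg adjustment in edgeR, and 0 did so by DESeq2. In that edgeR fit 0.0424% of all tested genes passed at 1 h against 0 h, 2.42% at 6 h against 0 h and 2.14% at 6 h against 1 h. Unadjusted p-values under 0.05 were found for 0, 0 and 2 of the 9 genes, the latter being Vim and Pax6. With the block, 0 passed at 1 h, where 1.36% of tested genes were higher and 2.14% lower. At 6 h against 0 h, 1 was higher (Emx2, background 17.4%) and 4 were lower (Nes, Vim, Lhx2 and Gas1, background 17.5%). At 6 h against 1 h, 2 were higher (Emx2 and Pax6, background 18.0%) and 4 lower (Nes, Vim, Lhx2 and Gas1, background 17.5%). The last comparison shares its 6 h libraries with the one before and is not separate evidence of it.

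Within replicates, all 9 genes kept 1 direction at 6 h against 0 h. Nes, Vim, Lhx2, Fabp7 and Gas1 were lower in 3 of 3 replicates, and Prom1, Nr2e1, Pax6 and Emx2 were higher in 3 of 3. For Nr2e1 the ratios were only 1.004, 1.041 and 1.0003. The share of all tested genes that kept 1 direction was not counted, so these counts are a description only. The median log2 fold change of the 9 genes was -0.16 against -0.0031 over all tested genes, and the median size of the change, without its sign, was 0.27 against 0.20. The libraries of the groups overlapped for all 9 genes at 1 h against 0 h, where they did not for 8.24% of all tested genes, and for all 9 at 6 h against 0 h (25.0%). At 1 h, 2 of the 9 genes had the same direction in 3 of 3 replicates, Vim with higher and Nes with lower values. The plot of CPM by library shows the differences between replicates and between time points together.

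**Figure D1:**
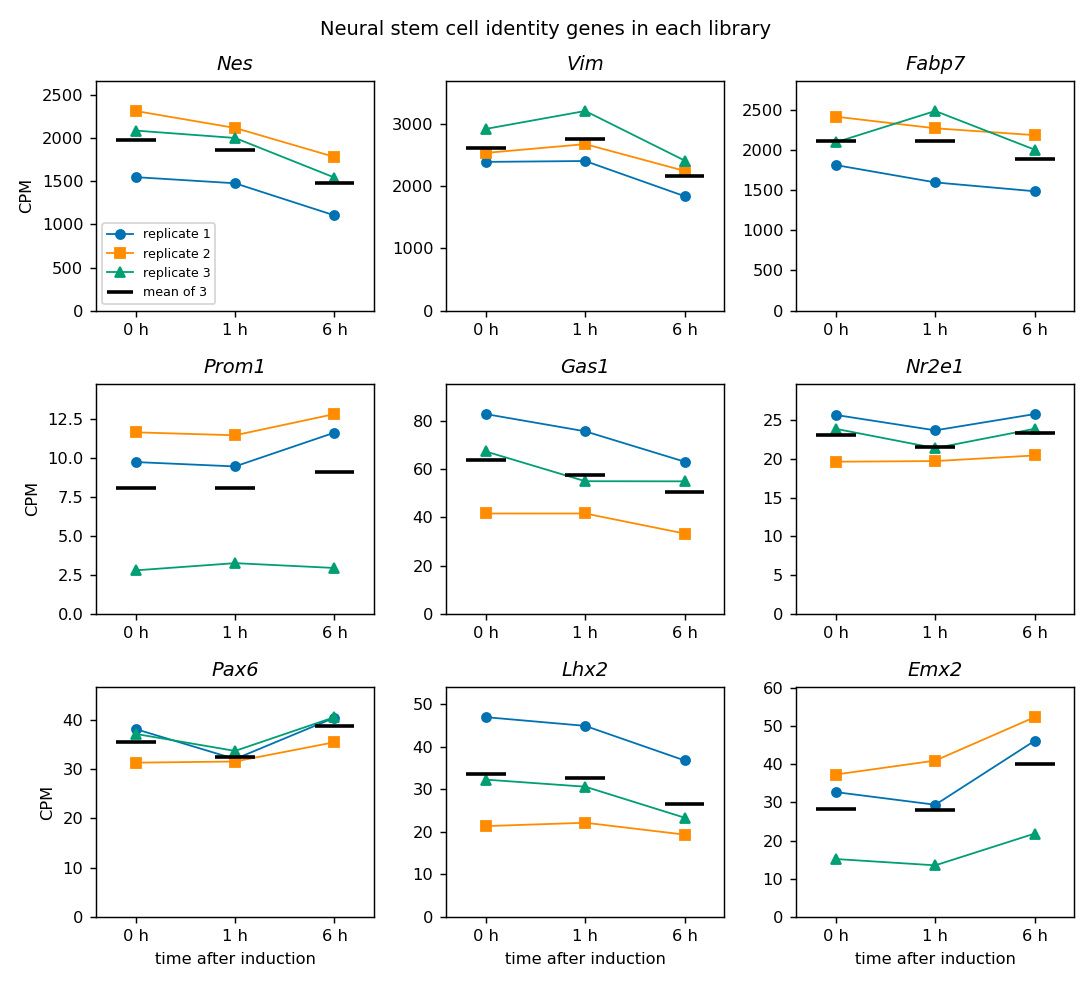
CPM of each of the 9 genes (vertical axes from 0) by time after induction (0, 1 and 6 h), with 1 line per replicate number and a black bar at the mean of 3. The lines of Nes run downwards and those of Emx2 end highest at 6 h, and the line of replicate 3 lies far below the others for Prom1 and Emx2.

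Both intermediate filament genes fell at 6 h in the fit with the block. Nes (ENSMUSG00000004891, chromosome 3, 87971078 to 87980451) encodes nestin, the filament protein by which neural progenitors are most often stained. Its CPM in replicates 1, 2 and 3 was 1549.7, 2318 and 2090.1 at 0 h, 1478, 2121 and 2005 at 1 h, and 1105.5, 1784 and 1545 at 6 h. Replicate 1 was the lowest at every time point, and each replicate was lowest at 6 h, although the values of 0 h and 6 h overlap between replicates. The ratio of 6 h to 0 h was 0.713, 0.770 and 0.739 in the 3 replicates. With the block Nes fell by 25.9%, a log2 fold change of -0.43 (SE 0.05, adjusted p = 3.2e-05 in edgeR, Benjamini-Hochberg, against 0.372 without the block). Most of the difference was between 1 h and 6 h (-0.35, SE 0.05, adjusted p = 0.000179 in edgeR, Benjamini-Hochberg with the block). At 1 h against 0 h the log2 fold change was -0.09 (SE 0.05) and did not pass.

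The study lists a pair of PCR primers for Nes, which are shown because they say which part of the transcript such an assay reads, while the counts cover the whole gene. In GENCODE transcripts the forward primer lies in exon 1 (chr3:87971921-87971938) and the reverse primer in exon 2 (chr3:87973018-87973040) of GRCm38, so that the product spans an exon junction.
Nestin-F: gagaggcgctggaacaga
Nestin-R: tctgactctgtagaccctgcttc

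Vim (ENSMUSG00000026728, chromosome 2, 13573927 to 13582826) encodes vimentin, the partner with which nestin polymerises. It stood at 2391, 2535 and 2921 CPM in replicates 1 to 3 at 0 h. The values were 2405, 2676 and 3209.5 CPM at 1 h, and 1839.6, 2246 and 2413 CPM at 6 h. Unlike Nes, Vim was highest at 1 h in 3 of 3 replicates, by ratios between 1.01 and 1.10 that did not pass the test (log2 fold change 0.07, SE 0.05, with the block). By 6 h it fell by 17.4% from 0 h (-0.28, SE 0.05, adjusted p = 0.00150 in edgeR, Benjamini-Hochberg with the block, 0.383 without). From 1 h to 6 h the log2 fold change was -0.35 (SE 0.05, adjusted p = 0.000285 with the block, 0.255 without, in edgeR, Benjamini-Hochberg).

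Among 11 other genes of intermediate filaments, the nuclear lamina and their linkers, 9 were tested. At 6 h against 0 h, 5 were lower and 0 higher with the block, and 0 passed without it. Of all tested genes, 17.5% were lower and 17.4% higher with the block, and 2.42% passed without it. The median log2 fold change without the block was -0.14 over the 9, against -0.0031 over all genes. Those lower included the neurofilament genes Nefl (log2 fold change with the block -1.29, adjusted p = 0.000512) and Nefm (-0.63, adjusted p = 0.00023), the astrocyte filament gene Gfap (-0.63, adjusted p = 0.0282) and Plec (-0.51, adjusted p = 0.00154), which encodes the linker plectin (edgeR, Benjamini-Hochberg). Nefl, Nefm and Gfap were scarce, with means of 2.22, 6.62 and 1.31 CPM at 0 h. The fifth was Lmna, the gene of lamins A and C, which was the 1 gene of the list past the threshold at 1 h, where it was higher (0.34 with the block, adjusted p = 0.00176 in edgeR, Benjamini-Hochberg).

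Fabp7 (ENSMUSG00000019874, chromosome 10, 57784881 to 57788450), the brain fatty acid-binding protein of radial glia, was lower at 6 h in 3 of 3 replicates but did not pass. The CPM was 1809.9, 2412 and 2093 in replicates 1 to 3 at 0 h, 1594, 2268 and 2483 at 1 h, and 1484, 2182 and 2002 at 6 h. Replicate 3 stood apart at 1 h, where it was 1.19 times its 0 h value while replicates 1 and 2 were at 0.881 and 0.940 times theirs. The log2 fold change at 6 h was -0.17 (SE 0.07, adjusted p = 0.0834 in edgeR, Benjamini-Hochberg with the block, 0.780 without). Without 0 h replicate 3 or without 1 h replicate 3 it passed the threshold with the block, and over the 9 fits that left out 1 library its adjusted p was between 0.00940 and 0.432 in edgeR, Benjamini-Hochberg. Of the other fatty acid-binding protein genes, 2 of 3 were tested. With the block 17.4% of all tested genes were higher at 6 h, and 1 of the 2 passed. This was Fabp5, which is also expressed in neural progenitors, with 223 ± 89.8 CPM (SD, n = 3) at 0 h, 255 ± 109 CPM (SD, n = 3) at 6 h and a log2 difference of 0.19 in the fit with the block (adjusted p = 0.0322 in edgeR, Benjamini-Hochberg, 0.900 without the block).

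Of the surface genes, Gas1 fell at 6 h with the block and Prom1 did not pass. Gas1 (ENSMUSG00000052957, chromosome 13, 60174405 to 60177365, 1 exon) encodes a GPI-anchored coreceptor of Hedgehog ligands that was first known as a growth arrest gene. It was at 82.9, 41.6 and 67.4 CPM in replicates 1 to 3 at 0 h. At 1 h the values were 75.8, 41.6 and 55.0 CPM, and at 6 h 63.2, 33.3 and 55.0 CPM. The order of the replicates was the same at each time point, with replicate 1 highest and replicate 2 lowest. With the block Gas1 fell by 20.7% at 6 h (log2 fold change -0.34, SE 0.06, adjusted p = 0.00117 in edgeR, Benjamini-Hochberg, 0.673 without). In replicate 3 the whole difference was already there at 1 h, with a ratio of 6 h to 1 h of 0.999 against 0.833 and 0.800 in replicates 1 and 2. Accordingly, the call at 6 h against 1 h (-0.20, adjusted p = 0.0278) was lost in 4 of the 9 fits with the block that left out a library, those without 1 h replicate 1, 1 h replicate 2, 6 h replicate 1 or 6 h replicate 2, with adjusted p up to 0.215 (edgeR, Benjamini-Hochberg). Gas1 shares 589 exon bases with Gm48488, a lincRNA gene of the other strand.

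Of 5 other Hedgehog coreceptors and core components, all tested, 1 rose and 1 fell at 6 h with the block, and 0 passed without it (median log2 fold change -0.13). Both are coreceptor genes that act alongside GAS1. With the block, 17.4% of all tested genes were higher and 17.5% lower at 6 h against 0 h. Boc, at 12.3 ± 3.05 CPM in the 0 h and 19.6 ± 4.78 CPM in the 6 h libraries (SD, n = 3 each), rose by 0.68 on the log2 scale (adjusted p = 7.3e-06 with the block, 0.172 without), and was already higher at 1 h (0.38, adjusted p = 0.00658 with the block) in edgeR, Benjamini-Hochberg. Cdon fell (-0.27, adjusted p = 0.0108 with the block, 0.870 without, in edgeR, Benjamini-Hochberg).

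Prom1 (ENSMUSG00000029086, chromosome 5, 43993620 to 44102032), the gene of CD133, an antigen used to sort NSCs, had the largest spread between replicates of the 9 genes. Its CPM was 9.72, 11.6 and 2.78 in replicates 1 to 3 at 0 h, 9.44, 11.4 and 3.24 at 1 h, and 11.6, 12.8 and 2.93 at 6 h. Replicate 3 lay below the others at every time point, by more than any difference between time points. The ratio of 6 h to 0 h was 1.19, 1.10 and 1.05, and the log2 fold change of 0.16 (SE 0.09) did not pass with the block (adjusted p = 0.175 in edgeR, Benjamini-Hochberg). The antisense gene Gm16401 shares 424 exon bases with Prom1 and had 2 to 25 reads per library. The paralogue Prom2 was at 0.602 ± 0.337 CPM at 0 h (SD, n = 3) and did not pass either.

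**Figure D2:**
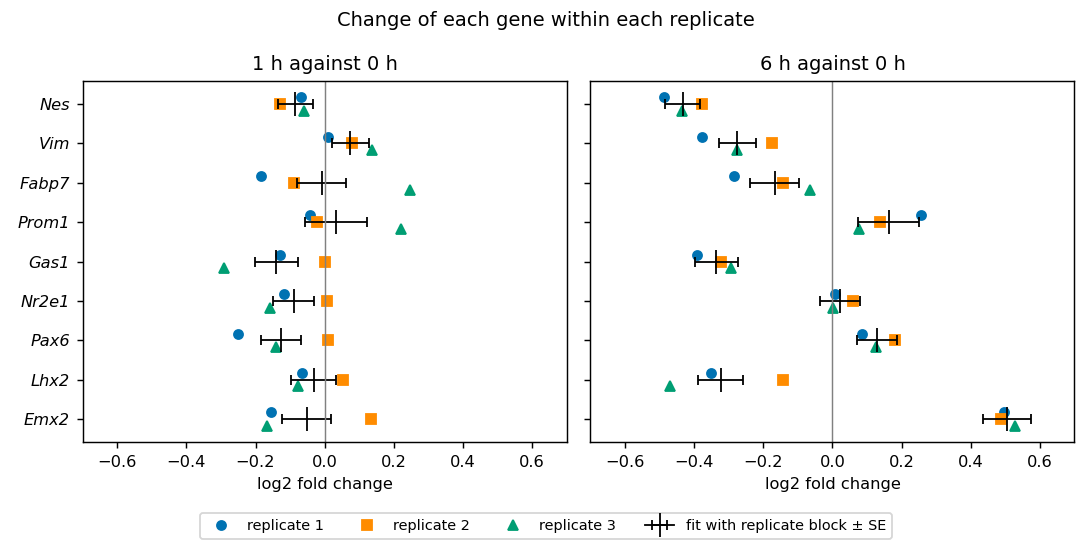
Log2 fold change (horizontal axis) of each gene within each replicate, for 1 h against 0 h on the left and 6 h against 0 h on the right, with the estimate of the fit with the replicate block and its standard error in black. At 6 h the 3 replicates of Emx2 lie together to the right of 0, and those of Nes, Vim, Gas1 and Lhx2 lie to the left.

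The transcription factors did not move as a group, since with the block 1 fell, 1 rose and 2 did not pass at 6 h against 0 h. Emx2 (ENSMUSG00000043969, chromosome 19, 59458372 to 59465357) is a homeobox gene of the dorsal telencephalon. In replicates 1, 2 and 3 it had 32.7, 37.3 and 15.2 CPM at 0 h, 29.4, 41.0 and 13.5 CPM at 1 h, and 46.2, 52.4 and 21.8 CPM at 6 h. Replicate 3 was the lowest throughout, yet the ratio of 6 h to 0 h was nearly the same in all replicates, 1.41, 1.40 and 1.44. Emx2 was the 1 gene of the 9 that passed the threshold with a rise at 6 h against 0 h, by 41.9% (log2 fold change 0.50, SE 0.07, adjusted p = 0.000124 in edgeR, Benjamini-Hochberg with the block, 0.684 without). At 1 h it was lower than at 0 h in replicates 1 and 3 and higher in replicate 2, and did not pass (-0.05, SE 0.07).

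Emx2os, an antisense gene, shares 264 exon bases with Emx2, and its counts reached 38.5% of those of Emx2 in a library. The sources used here do not give the strand setting of the counting, so reads over the shared bases cannot be assigned. Emx2os had means of 7.94 ± 2.59, 8.24 ± 2.93 and 14.0 ± 4.81 CPM (SD, n = 3 each) over the successive time points. It was higher at 6 h than at 0 h in 3 of 3 replicates (log2 fold change 0.81, SE 0.07, adjusted p = 2.7e-06 in edgeR, Benjamini-Hochberg with the block, 0.323 without). Replicate 3 was the lowest for Emx2os too, as the plot of both genes shows.

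**Figure D3:**
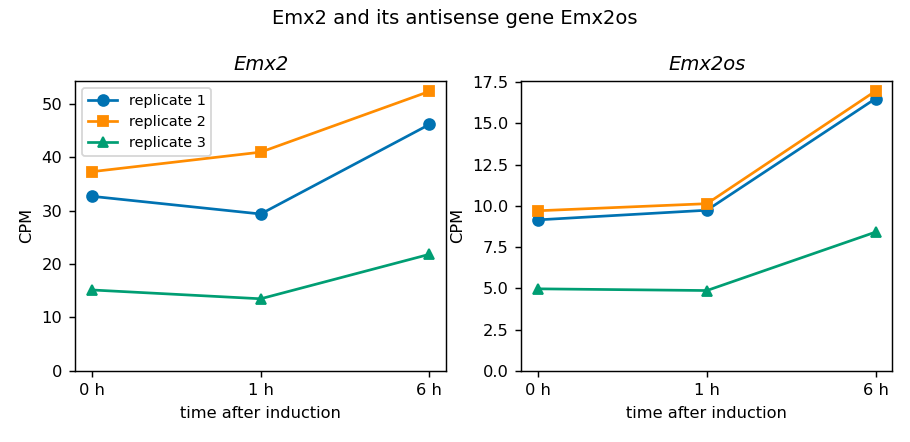
CPM of Emx2 (left) and of its antisense gene Emx2os (right) by time after induction, with 1 line per replicate number and axes from 0. Both genes have their highest value at 6 h in each replicate, and replicate 3 is lowest at every time point.

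Lhx2 (ENSMUSG00000000247, chromosome 2, 38339281 to 38369733), a LIM homeobox gene of cortical and eye field progenitors, went the other way. It had 46.9, 21.3 and 32.2 CPM in replicates 1 to 3 at 0 h, 44.8, 22.1 and 30.6 CPM at 1 h, and 36.7, 19.3 and 23.3 CPM at 6 h. Replicate 1 was the highest and replicate 2 the lowest at each time point, and replicate 2 also had the smallest change, with a ratio of 6 h to 0 h of 0.906 against 0.783 and 0.722. With the block Lhx2 fell by 20.1% (log2 fold change -0.32, SE 0.06, adjusted p = 0.00167 in edgeR, Benjamini-Hochberg, 0.719 without).

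Pax6 (ENSMUSG00000027168, chromosome 2, 105668900 to 105697364), a paired box gene of radial glia and of dopaminergic olfactory neurons, was the 1 gene of the 9 with a pair of time points that did not overlap. It measured 38.2, 31.3 and 37.2 CPM at 0 h, 32.1, 31.6 and 33.7 CPM at 1 h, and 40.5, 35.5 and 40.6 CPM at 6 h in replicates 1 to 3. Every 6 h library was above every 1 h library, as was the case, in either direction, for 22.2% of all tested genes, while the 0 h values overlapped both. Pax6 rose from 1 h to 6 h (log2 fold change 0.26, SE 0.06, adjusted p = 0.00426 in edgeR, Benjamini-Hochberg with the block, 0.208 without), and at 6 h against 0 h it did not pass (0.13, SE 0.06, adjusted p = 0.103 with the block in edgeR, Benjamini-Hochberg).

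Nr2e1 (ENSMUSG00000019803, chromosome 10, 42561963 to 42583632) encodes the orphan nuclear receptor TLX, which keeps adult NSCs cycling by repressing its targets. With 25.7, 19.7 and 23.9 CPM at 0 h, 23.7, 19.7 and 21.4 CPM at 1 h, and 25.8, 20.5 and 23.9 CPM at 6 h, it had the smallest change of the 9 between 0 h and 6 h. The ratio of 6 h to 0 h was 1.00, 1.04 and 1.00 in replicates 1 to 3. The log2 fold change at 6 h was 0.02 with an SE of 0.06 with the block and of 0.13 without it, and passed in neither fit.

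Of 7 tested genes that NR2E1 represses or that encode its corepressors, 1 was higher and 2 were lower at 6 h with the block, where 17.4% of all tested genes were higher and 17.5% lower, with a median log2 fold change of 0.034 without the block. Hdac5, a histone deacetylase that binds NR2E1, rose from 83.0 ± 18.0 to 225 ± 11.2 CPM (SD, n = 3 each), by 1.44 on the log2 scale (SE 0.16, adjusted p = 0.00724 in edgeR, Benjamini-Hochberg without the block). Hdac1 was lower with the block (-0.27, adjusted p = 0.000682). Cdkn1a, which encodes the cell cycle inhibitor p21, was higher at 1 h with the block (0.30, adjusted p = 0.00249) and did not pass at 6 h (0.11, adjusted p = 0.0823, edgeR, Benjamini-Hochberg).

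The other lists were mixed in direction. Of 16 further factors of forebrain regional identity, 12 were tested, and Nkx2-1, which marks the ventral forebrain, was at 0 in every library. With the block 1 was higher (Zic1, 0.28, adjusted p = 0.0250) and 3 were lower, namely Tbr1 (-1.54, adjusted p = 0.00509), Dlx1 (-0.46, adjusted p = 0.0313) and Meis2 (-0.15, adjusted p = 0.0487, edgeR, Benjamini-Hochberg), and 0 passed without it. The median over the 12 was -0.12 without the block. In the fit with the block, here and for the NSC list below, 17.4% of all tested genes were higher and 17.5% lower. Tbr1, a marker of glutamatergic cortical neurons, was at 0.382 CPM or less on average. Zic1, a zinc finger gene of the septum, ran from 0.0415 to 64.8 CPM across libraries. Of 20 other NSC and radial glia genes, 9 were higher and 7 lower with the block. Without it 2 were higher and 0 lower, with a median log2 fold change of 0.041, and 2.42% of all tested genes passed. Among the 2 was Msi1, an RNA-binding protein of neural progenitors, which rose from 45.3 ± 2.61 to 71.2 ± 6.91 CPM (SD, n = 3 each; 0.65, adjusted p = 0.0251, edgeR, Benjamini-Hochberg). Hes5, a Notch target, was higher with the block (0.68, adjusted p = 0.00596) and Hopx, a gene of quiescent radial glia, lower (-0.89, adjusted p = 0.00292), both at under 10 CPM in every library (edgeR, Benjamini-Hochberg).

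Markers of other cell types moved at 6 h as well. With the block, 4 of 8 neuroblast and neuron markers, 2 of 6 tested astrocyte markers and 5 of 8 oligodendrocyte lineage markers were higher, and 0 of each were lower. Of all tested genes 17.4% were higher and 17.5% lower in that fit, and lists this short give only a coarse comparison with those shares. Their median log2 fold changes without the block were 0.25, 0.17 and 0.34 over the tested genes, against -0.0031 over all genes. The summed CPM of the oligodendrocyte lineage list ran from 1696 to 2294 over the 0 h libraries, from 1838 to 2201 over those of 1 h and from 2169.5 to 2518 over those of 6 h. In the same order, it ran from 989 to 1504, from 858 to 1524 and from 1019 to 1584 for the neuroblast and neuron list, and from 826 to 1046, from 845 to 1047 and from 1033 to 1216 for the astrocyte list. The neuroblast and neuron sum was mostly Map2 (1118 CPM over all libraries). Map2 (log2 fold change with the block -0.0099), Dcx (-0.35), Stmn2 (-0.77) and Gad1 (-0.16) had negative values and did not pass. Ependymal (2 of 5 tested, summed level 48.3 to 90.1 CPM at 0 h and 41.3 to 63.2 CPM at 6 h), endothelial (2 of 3, 3.35 to 5.27 and 1.97 to 3.69 CPM) and microglia markers (1 of 1 tested) had genes that were lower with the block and none that were higher. But the median log2 fold change of the ependymal list was 0.19, and its summed level was mostly Foxj1 (57.6 CPM over all libraries). The microglia gene was Csf1r, at 0.130 CPM over all libraries and 3 to 20 reads. Of 4 tested mural and fibroblast markers, 1 was higher and 2 were lower (52.6 to 96.2 CPM at 0 h and 33.3 to 46.8 CPM at 6 h). Without the block 1 gene of these lists passed, Cspg4 of the oligodendrocyte lineage (log2 fold change 1.40, adjusted p = 0.00672 in edgeR, Benjamini-Hochberg). The part of these shifts in the values of the 9 genes was not tested.

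The replicates differed more than the time points for most of these genes. For 7 of the 9 genes the replicate number took a larger share of the sum of squares of log2 CPM than the time point did, the exceptions being Vim (47.8% by replicate and 48.7% by time) and Pax6 (33.7% and 56.3%). Over 13606 genes with a mean of at least 1 CPM the medians were 52.5% by replicate and 29.9% by time. The share by replicate was 98.7% for Prom1, 88.0% for Lhx2, 86.6% for Gas1, 85.4% for Nr2e1, 83.9% for Emx2, 80.1% for Fabp7 and 64.2% for Nes. The highest and the lowest replicate mean differed by 3.98-fold for Prom1, 2.62-fold for Emx2, 2.04-fold for Lhx2 and 1.90-fold for Gas1, against a median of 1.23-fold over all these genes. That range put Prom1 at the 97.4th percentile and Emx2 at the 95.2nd, whereas Pax6, with 1.13-fold, was at the 27.6th.

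The replicate that stood apart was not the same for all genes. Replicate 3 was the lowest for Prom1 and Emx2. Replicate 2 was the lowest for Lhx2, Gas1, Nr2e1 and Pax6, and replicate 1 for Nes, Vim and Fabp7. The part of culture, animal or handling in these differences cannot be told apart, since nothing in the labels names them.

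**Figure D4:**
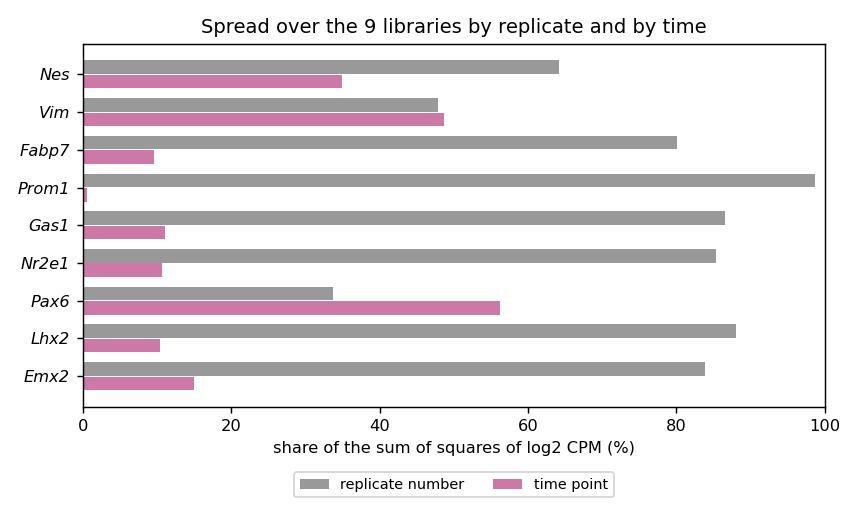
Share of the sum of squares of log2 CPM over the 9 libraries (horizontal axis, percent) that goes with the replicate number (grey) and with the time point (pink) for each gene. The grey bar is longer for 7 of the 9 genes, and for Prom1 it reaches 98.7%.

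Once the mean of each replicate number had been subtracted, the 9 genes fell into patterns that ran with or against each other over the 9 libraries. Pearson correlations of log2 CPM are given as a description, because the libraries share time points and scaling. Nes went with Lhx2 (r = 0.940) and Vim (0.914), and both Nes (-0.947) and Vim (-0.957) went against Emx2. Pax6 went with Nr2e1 (0.897) and Emx2 (0.895), and Prom1 went against Gas1 (-0.861). Among 10900 genes with a mean of at least 5 CPM, the most alike were Txlna, Slc35a3 and Lyn for Nes (r from 0.995 to 0.998), Agk, Xrcc1 and Snrnp70 for Vim, Snx24, Fzd10 and Lhfpl2 for Lhx2, and Cyld, Hipk1 and Nupl1 for Gas1. For Emx2 they were Scrn3 (r = 0.997), Acsl6 and Rcan3, for Pax6 Brsk2, Zfp658 and Zfp273, and for Nr2e1 Klhl28, Mir124-2hg and Zfp866. Gstz1, Slc35a1 and Gm6419 were most like Prom1, and Gm6563, Snhg6 and Anapc15 most like Fabp7. The lowest of these 27 correlations was 0.969, for Zfp866 with Nr2e1.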

How the data were processed

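RNA-seq libraries of NSCs were grouped by the time and replicate given in the labels, with 3 libraries each for 0 h, for 1 h and for 6 h. The authors deposited raw counts of reads per gene, without normalisation. They aligned paired-end reads to mm10 (GRCm38) and counted them on Ensembl genes with STAR 2.5.3a, checked reads with FastQC and tested expression with DESeq2 1.22.1, per the labels and the methods. The libraries are labelled as stranded, and the strand setting of the counting is not given in the sources used here.

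Fits ran in R 4.3.3 with edgeR 4.0.16 (TMM, filterByExpr with minimum count 10 and minimum total count 15, glmQLFit and glmQLFTest), limma 3.58.1 and DESeq2 1.42.0. In the edgeR fits of all 9 filtered libraries, p-values were adjusted over all 18858 tested genes by Benjamini-Hochberg, and the threshold was 0.05. DESeq2 gave an adjusted p to fewer genes, 14805, 17357 and 15899 without the block at 1 h against 0 h, 6 h against 0 h and 6 h against 1 h. Fits without a filter or on fewer libraries had other totals of tested genes. All 9 libraries entered 1 fit with time point as the factor, and another with the replicate number as a block. After subtraction of time point means, libraries with the same number correlated with r between 0.733 and 0.800 (9 pairs) and others between -0.462 and -0.314 (18 pairs), so the numbers, which come from the labels, pair the samples. Log2 CPM used a prior count of 2. No library repeated another (chi-square per degree of freedom at least 12.5). Total counts were 65871454 to 105592597. Counting error is small at this depth for most of these genes, and larger for Prom1 (194 to 1163 reads).

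Symbols, positions and exon lengths come from GENCODE M21, which held 48058 of the 48526 identifiers, and the start windows from RefSeq (GRCm38.p6). Python 3.11.15 (pandas 2.3.3, numpy 2.4.6) was used for tables, and matplotlib 3.10.9 for plots. The fits were tested on simulated data. Some genes that the naming rule covers are not reported here. The 9 genes, the lists and the tests were chosen with earlier results of these data known. All 9 genes are named, and of each other list that is not a marker list up to 4 genes past the threshold in either fit at 6 h or 1 h against 0 h, by the size of their change at 6 h. Lmna was named after its values were seen. Alike genes are the 3 with the highest Pearson correlation after subtraction of replicate means. Alternatives were DESeq2, the block in edgeR and DESeq2, RLE scaling, library totals, no filter on low counts, the 6 libraries compared alone, leaving out each library, and the block after each library had been corrected for GC content and transcript length by a spline (4 degrees of freedom, values known for 99.6% of tested genes). Splicing was not analysed here.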

Additional observations from a re-analysis of the deposited data

Results flagged for a closer look

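Vim was higher at 1 h than at 0 h in 3 of 3 replicates (ratios 1.006, 1.06 and 1.10). It was lower at 6 h than at 0 h in 3 of 3 (0.769, 0.886 and 0.826), and was flagged by these directions. The difference between 6 h and 1 h was a log2 fold change of -0.35 (adjusted p = 0.000285 with the replicate block and 0.255 without it, in edgeR, Benjamini-Hochberg). That test uses the same values and includes the fall at 6 h, so it does not test a rise at 1 h. The higher value at 1 h alone did not pass in either fit, and of the 9 genes Vim was the 1 with opposite directions in all 3 replicates at the 2 time points. The share of all tested genes with such a pattern was not counted.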

How the results depend on the processing

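Counts of genes past the threshold depended on the block, the tool, the filter and the libraries fitted. At 1 h against 0 h, 6 h against 0 h and 6 h against 1 h, the 8, 456 and 404 genes past the threshold became 661, 6581 and 6710 with the block in edgeR, 929, 6126 and 6285 with the block in DESeq2, 704, 6981 and 7325 with the block and a GC content and length correction, and 99, 1742 and 1695 in DESeq2 without it. Without a filter there were 205 and 220 at 6 h against 0 h and against 1 h, and with only the 6 libraries compared 4, 113 and 21. When 1 library was left out, with or without the block, the counts ran from 1 to 886, from 39 to 8051 and from 30 to 6657. Of the 9 genes, 5 passed at 6 h against 0 h and 6 at 6 h against 1 h in each of the 3 fits with the block, 0 passed in every fit without it, and leaving out 1 library gave 0 to 6 in either comparison (5 or 6 with the block). Nes, Vim, Lhx2, Gas1 and Emx2 stayed past the threshold at 6 h against 0 h in all 9 such fits with the block. The block changed no call of the 9 genes at 1 h.

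Small log2 fold changes turned sign. Prom1 at 1 h (-7.3e-05) was 0.033 with the block, 0.0073 in DESeq2, 0.041 in DESeq2 with the block, 0.0075 with RLE scaling, 0.0032 without a filter, 0.053 with the block and that correction, and 0.0044 with only the 6 libraries compared. Fabp7 at 1 h (0.0067) was -0.0082 with the block, -0.0021 in DESeq2 with the block, -0.0076 with library totals and -0.024 with the block and that correction, and Nr2e1 at 6 h against 0 h was -0.027 in that last fit. Leaving out 1 library gave at 1 h ranges of -0.24 to 0.060 for Nes, -0.038 to 0.17 for Vim, -0.41 to 0.38 for Prom1, -0.34 to 0.28 for Lhx2, -0.41 to 0.31 for Emx2, -0.12 to 0.18 for Fabp7 and -0.40 to 0.077 for Gas1. At 6 h against 0 h it gave -0.23 to 0.60 for Prom1 and -0.078 to 0.11 for Nr2e1, and at 6 h against 1 h -0.20 to 0.60 for Prom1, -0.61 to 0.0040 for Lhx2 and -0.38 to 0.061 for Gas1. The ends of all these ranges come from fits without the block. With the block, leaving out 1 library turned no sign for Nes, Vim or Gas1 at 1 h, and none at 6 h against 1 h, where Lhx2 ran from -0.35 to -0.23 and Gas1 from -0.28 to -0.12. Signs did turn with the block at 1 h for Prom1 (-0.042 to 0.11), Lhx2 (-0.091 to 0.015), Emx2 (-0.17 to 0.0082) and Fabp7 (-0.11 to 0.066). At 6 h against 0 h that of Nr2e1 turned (-0.0058 to 0.043). The causes were not tested. Fits that left out a library assume that the remaining libraries of its time point vary like the others. With 3 replicates and a common biological coefficient of variation of 0.277 without the block and 0.0627 with it, none of the 9 genes passed in any fit without the block.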
